A study of Mus musculus with 5 samples.

Results

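Kinesins are microtubule motors, and the 44 gene symbols described here are the rows of a mouse 2-cell embryo expression table of 32285 rows whose names begin with Kif followed by a digit or a c. The table holds 3 libraries of embryos exposed to PNMC at 25 nM during 24 h of culture in KSOM medium, and 2 Control libraries given an equal volume of the solvent DMSO instead; PNMC is not spelled out in the labels. All embryos came from in vitro fertilisation of about 6 h, with oocytes of hormone-stimulated females aged 6 to 9 weeks and sperm of males aged 12 to 16 weeks; strain and genotype are not stated. The number of embryos per library, and whether libraries came from separate cultures, is not stated either, so the p-values reflect the variation among these 5 libraries, part or all of which could be technical. RNA was copied with Smart-seq2, which keeps no strand information.

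Motors of this family share a catalytic domain that walks along, or takes apart, microtubules. One set assembles the spindle, moves chromosomes and builds the midzone on which the cell divides, and another carries organelles, vesicles and ciliary parts. Mouse embryos make their first cleavages without centrioles, so their spindles are organised by motors and other microtubule-associated proteins. Transcripts inherited from the egg and transcripts newly made by the embryo are both present at the 2-cell stage and are not separated by this assay.

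By textbook role, 15 rows were mitotic kinesins, 17 were transport kinesins and 10 were kinesins of cilia or of other roles. The other 2 rows matched the name rule without being motors. Kif1bp encodes a kinesin-binding protein, and Kif16bos is named as an opposite-strand transcript of Kif16b. A row was tested when 2 or more libraries gave it a value of 1 or higher. Of the 44 rows, 30 passed, and these were 14 of 15 mitotic kinesins, 12 of 17 transport kinesins, 3 of 10 cilium and other kinesins, and Kif1bp.

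The libraries carried the markers of 2-cell embryos. The oocyte and maternal markers summed to between 8571 and 8984 in PNMC libraries and between 8292 and 8874 in Control libraries, led by the maternal mRNA decay adaptor Btg4, and the markers of the transient 2-cell programme, led by Zfp352, summed to between 1278 and 1532 in PNMC libraries and between 1297 and 1429.8 in Control libraries. Of the cumulus and granulosa markers, Foxl2, Amh, Inhba and Ptx3 were listed at 0 everywhere, and the 12 markers summed to between 5.82 and 7.83 in PNMC libraries and between 8.47 and 10.2 in Control libraries, with Cyp19a1 the highest. The sperm list, which summed to between 128 and 153 in PNMC libraries and between 133 and 141 in Control libraries, was carried by Odf2, also known as a centrosomal gene, while Prm1, Tnp2 and Smcp were at 0 everywhere. Of the spermatid genes, Prm2 was present in all 5 libraries, at 5.19, 5.79 and 4.54 in PNMC libraries and 3.91 and 4.02 in Control libraries, without overlap. Tssk6 lay the other way without overlap, at 0.192, 0.899 and 0.390 in PNMC libraries and 1.03 and 1.15 in Control libraries. It reached 1 only in Control libraries. Akap4 was at 0 in the PNMC libraries and at 0.0497 and 0.297 in Control libraries. Blood markers summed to at most 14.1 in a PNMC library and 13.7 in a Control library, with Hba-a1 the highest, and the oviduct list, at 55.2 to 102 in PNMC libraries and 66.0 to 69.6 in Control libraries, was carried by the epithelial gene Epcam while Pax8 was at 0. Of the blood list, Cd68 was at 4.52, 3.92 and 3.83 in PNMC libraries and 2.23 and 0.852 in Control libraries, without overlap. Hba-a1 and Hba-a2 overlapped. The sum of the cumulus markers and Tssk6 lay lower in PNMC libraries, and Prm2 and Cd68 lay higher. Cyp19a1 overlapped, at 2.69 to 4.03 in PNMC libraries and 2.46 to 3.96 in Control libraries. Only 2 of the 12 cumulus markers were tested. Among the untested ones, Has2 lay higher, at 0.257 to 0.695 in PNMC libraries and 0.193 to 0.251 in Control libraries. Star lay lower, at 0.216 to 0.493 in PNMC libraries and 0.767 to 1.93 in Control libraries, as did Hsd3b1. The part of these markers in the results below was not tested. Control library 2 listed 18595 genes above 0, against 17408 to 17635 in the other libraries. In such bulk libraries, fewer cells of a type and less RNA per cell cannot be told apart.

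Promoters of the mitotic kinesins were compared with those of the transport kinesins because cell-cycle genes are known to share CCAAT boxes, bound by NF-Y, and cell cycle homology regions, bound by the MuvB complexes. RefSeq start sites on GRCm38.p6 matched 34 of the 44 rows, and the 250 bases before each start were searched on both strands for CCAAT, and for TTTGAA or TTTAAA as the homology region. The most abundant mitotic kinesins with a window and the most abundant transport kinesin are shown, with matches in capitals.

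Kif23, chr9:61946800-61947049, minus strand: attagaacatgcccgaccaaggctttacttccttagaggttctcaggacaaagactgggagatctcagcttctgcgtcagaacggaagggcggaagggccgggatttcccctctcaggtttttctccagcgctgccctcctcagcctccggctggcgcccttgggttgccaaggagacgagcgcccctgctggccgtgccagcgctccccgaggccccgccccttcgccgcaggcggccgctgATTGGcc

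Kif22, chr7:127042421-127042670, minus strand: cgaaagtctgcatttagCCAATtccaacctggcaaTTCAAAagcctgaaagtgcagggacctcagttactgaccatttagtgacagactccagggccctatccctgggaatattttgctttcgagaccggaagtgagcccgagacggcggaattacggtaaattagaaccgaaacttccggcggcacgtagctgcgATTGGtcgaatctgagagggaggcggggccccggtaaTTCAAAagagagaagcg

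Kif17, chr4:138262001-138262250, plus strand: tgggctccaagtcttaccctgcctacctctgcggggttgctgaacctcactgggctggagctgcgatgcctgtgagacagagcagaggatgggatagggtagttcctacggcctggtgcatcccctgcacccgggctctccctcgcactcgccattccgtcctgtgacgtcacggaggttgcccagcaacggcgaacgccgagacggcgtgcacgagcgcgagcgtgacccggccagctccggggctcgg

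Kif23 held a single CCAAT match, read on the opposite strand, which begins 7 bases before the start. Kif22 held 2 CCAAT matches, 233 and 54 bases before the start, and 2 homology region matches, 215 and 17 bases before it. Kif17 held neither motif. Among the windows of mitotic kinesins, 9 of 15, or 60%, held CCAAT and 5 of 15, or 33.3%, held a homology region match. These 15 windows came from 14 genes, because Kif2a was counted at each of its starts and Kif20a had no window. The windows of transport kinesins held CCAAT in 4 of 13, or 30.8%, and a homology region match in 1 of 13, or 7.69%. These 13 windows came from 11 genes, with Kif1a and Kif1b counted at each of their starts. The overlapping Kif1b windows all held CCAAT, and the homology region match lay in 1 of the Kif1a windows. Of all 32851 windows, 33.9% held CCAAT and 25.2% held a homology region match. Among the 12176 windows of genes tested, these shares were 36.4% and 19.3%. The windows of Kifc1 and Kifc5b, which both held CCAAT, were 86.0% identical over 222 bases and were counted separately. Median GC content was 64% in mitotic, 69.2% in transport and 52.4% in all windows, and the shares were not adjusted for it. These are letter matches in a fixed window and were not tested for binding.

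Mitotic kinesins were the more abundant class on the deposited scale. The median level of the tested members, averaged over the 5 libraries, was 23.1 for 14 mitotic kinesins and 7.84 for 12 transport kinesins, against 7.09 over all 12734 genes tested. The unit of the table is not stated. Its low values have no step common to genes, as after a scaling that differs between genes, and whether that scaling was by length is not stated. Dividing each level by the longest GENCODE M21 transcript of the gene kept the order, at medians of 7.13 per kb for mitotic and 1.12 per kb for transport kinesins. Of the 15 mitotic rows, 11 had a mean of at least 10, as did 4 of the 17 transport rows and none of the 10 cilium and other rows.

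**Figure D1:**
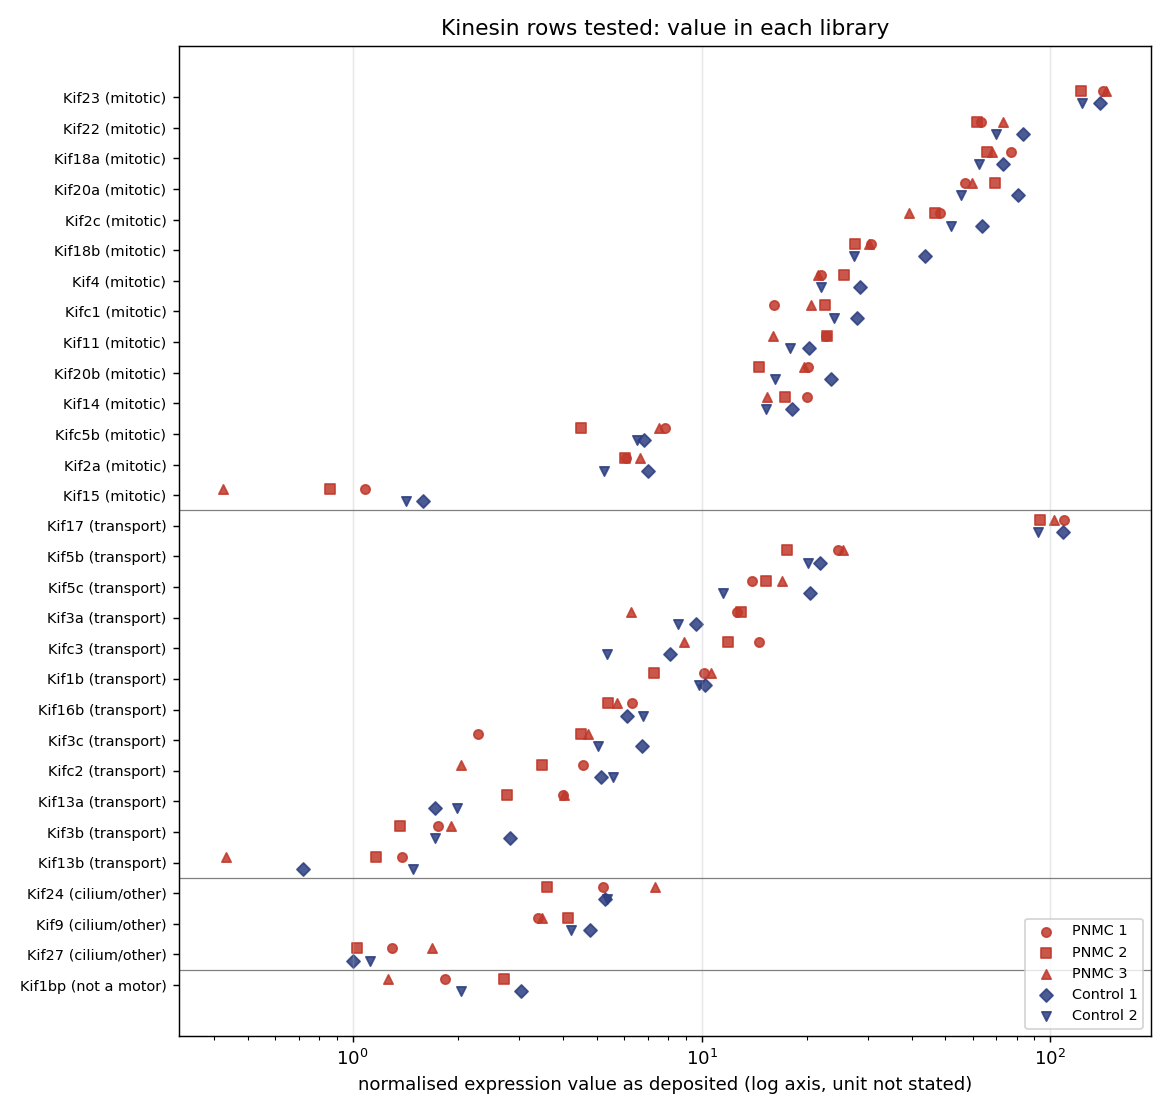
Deposited normalised value (log axis) of each of the 30 tested rows in the 3 PNMC libraries (red) and the 2 Control libraries (blue), grouped by role and ordered by mean level. Kif23 and Kif17 lie highest, and most mitotic kinesins lie above most transport kinesins.

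The family's highest level was that of a midzone motor. Kif23, which pairs with Racgap1 in the centralspindlin complex of the spindle midzone, had values of 142, 122 and 145 in PNMC libraries 1 to 3 and of 138 and 123 in Control libraries 1 and 2. Its mean over all libraries stood at percentile 95.9 of the genes tested, and the groups overlapped. The mean was 136 ± 12.3 (SD, n = 3) with PNMC and 131 ± 10.7 (SD, n = 2) in Controls. The ratio of Kif23 to Racgap1 on the deposited scale was 1.54, 1.43 and 1.60 in PNMC libraries and 1.47 and 1.38 in Control libraries. Kif20a, which brings the chromosomal passenger complex to the midzone, had values of 56.8, 69.2 and 59.7 in PNMC libraries and 81.0 and 55.6 in Control libraries, so the Control values enclosed all PNMC values. Exons of Kif20a share 1271 bases with the opposite-strand gene Cdc23, whose level was 7.74 ± 1.03 with PNMC and 11.8 ± 0.331 in Controls, and reads in the overlap cannot be assigned by strand. Kif4, a chromokinesin that works with the midzone bundler Prc1, averaged 23.1 ± 2.25 with PNMC and 25.3 ± 4.58 in Controls. Kif14 and Kif20b, which act in cytokinesis, averaged 17.6 ± 2.32 and 18.2 ± 3.06 with PNMC, and 16.8 ± 2.04 and 19.9 ± 5.14 in Controls.

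The motors of chromosome movement Kif22 and Kif18a had levels near that of Kif20a. Kif22, a chromokinesin that pushes chromosome arms towards the spindle equator, had values of 63.2, 61.5 and 73.4 in PNMC libraries and 83.3 and 69.9 in Control libraries. PNMC library 3 lay between the Control libraries, and the other PNMC libraries lay below both. Kif18a, a kinesin-8 that damps chromosome oscillations, had values of 77.0, 65.9 and 68.1 in PNMC libraries and 73.1 and 62.6 in Control libraries, which overlapped. Its relative Kif18b, which acts on astral microtubules, had values of 30.6, 27.5 and 30.1 in PNMC libraries and 43.8 and 27.3 in Control libraries. Control library 1 stood apart for Kif18b, while Control library 2 and the 3 PNMC libraries lay within a few units of each other. Kif2c, a microtubule depolymerase that corrects kinetochore attachments, had values of 48.1, 46.8 and 39.3 in PNMC libraries and 63.5 and 52.0 in Control libraries. All PNMC values of Kif2c lay below both Control values, and the fitted log2 change was -0.36 (SE 0.179 and limma adjusted p = 0.986). It was -0.22 without Control library 1.

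Among the spindle-building motors, Kif11, the motor that pushes spindle poles apart, averaged 20.6 ± 3.90 with PNMC and 19.2 ± 1.71 in Controls, and its groups overlapped. Kif15, which can stand in for Kif11, was near the detection floor at 1.08, 0.862 and 0.425 in PNMC libraries and 1.59 and 1.42 in Control libraries. Its PNMC values were all lower. Kifc1, a minus-end-directed motor that focuses spindle poles, had values of 16.1, 22.6 and 20.6 in PNMC libraries and 27.9 and 24.0 in Control libraries. Again every PNMC value was below both Controls, with an estimated difference of -0.39 in log2 units (SE 0.217 and limma adjusted p = 0.993), which was -0.25 without PNMC library 1. Kifc5b, a close copy of Kifc1, had values of 7.86, 4.52 and 7.55 in PNMC libraries and 6.85 and 6.52 in Control libraries. The Kifc5b groups overlapped. Of the 50-base words of Kifc1 transcripts, 38.6% also occur in Kifc5b, and 36.6% of those of Kifc5b occur in Kifc1, so the split of reads between the copies is uncertain. The depolymerase Kif2a averaged 6.26 ± 0.362 with PNMC and 6.14 ± 1.27 in Controls, while Kif2b was listed at 0 in all libraries except Control library 2, at 0.0395.

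Transport kinesins included 1 gene at the level of the leading mitotic motors. Kif17, known in neurons for carrying NMDA receptor subunits along dendrites, had values of 109.7, 93.5 and 102 in PNMC libraries and 108.9 and 92.0 in Control libraries. The groups overlapped throughout, and the level stood at percentile 94.2 of the genes tested. Kif5b, the widely expressed conventional kinesin heavy chain, averaged 22.5 ± 4.29 with PNMC and 21.03 ± 1.20 in Controls. Kif5c, its relative best known from neurons, averaged 15.4 ± 1.51 with PNMC and 16.0 ± 6.36 in Controls, where Control library 1 had 20.5 and Control library 2 had 11.5. Kif5a was at most 0.629 in a PNMC library and 0.348 in a Control library. The conventional light chains Klc1, Klc2 and Klc4, which link Kif5 motors to cargo, averaged 6.94 ± 1.88, 7.44 ± 0.653 and 15.1 ± 4.84 with PNMC, and 6.57 ± 4.28, 6.69 ± 0.202 and 14.3 ± 4.95 in Controls.

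The subunits of the heterotrimeric kinesin-2, the motor of intraflagellar transport, were present at unequal levels. Kif3a had values of 12.6, 12.9 and 6.26 in PNMC libraries and 9.67 and 8.58 in Control libraries, so PNMC libraries lay on both sides of the Controls. Its partner Kif3b averaged 1.68 ± 0.283 with PNMC and 2.28 ± 0.789 in Controls, and the accessory subunit gene Kifap3, at 0.770 ± 0.271 with PNMC and 0.437 ± 0.473 in Controls, did not reach the filter. The Kif3a to Kif3b ratio was 7.20, 9.49 and 3.27 in PNMC libraries and 3.41 and 5.00 in Control libraries, which overlap. Kif3c, a kinesin-2 of neurons, had values of 2.28, 4.53 and 4.72 in PNMC libraries and 6.74 and 5.05 in Control libraries. All of its PNMC values were lower, at a difference of -0.54 in log2 units (SE 0.343 and limma adjusted p = 0.993), which was -0.28 without PNMC library 1. Opposite-strand exons of 1110002L01Rik cover 2617 bases of Kif3c exons.

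The smallest p among tested members belonged to a transport kinesin. Kifc3, a minus-end-directed motor known at adherens junctions, had values of 14.6, 11.9 and 8.93 in PNMC libraries and 8.09 and 5.36 in Control libraries. The groups did not overlap, with a mean of 11.8 ± 2.84 (SD, n = 3) with PNMC and 6.73 ± 1.93 (SD, n = 2) in Controls and a log2 change of 0.73 (95% interval 0.11 to 1.35, limma adjusted p = 0.967). The change was 0.47 without Control library 2. Kif13a, which moves recycling endosomes, had values of 3.99, 2.76 and 4.04 in PNMC libraries and 1.73 and 1.98 in Control libraries. These groups did not overlap either, and the log2 change was 0.68 (95% interval -0.06 to 1.41, limma adjusted p = 0.986). Kifc2, a minus-end-directed motor of neuronal dendrites, had values of 4.58, 3.49 and 2.04 in PNMC libraries and 5.15 and 5.58 in Control libraries. Its PNMC values were all lower, at a difference of -0.59 in log2 units (SE 0.344 and limma adjusted p = 0.993), which was -0.35 without PNMC library 3.

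The other tested transport kinesins overlapped between groups. Kif1b, which carries mitochondria and synaptic vesicle precursors, averaged 9.35 ± 1.79 with PNMC and 10.03 ± 0.269 in Controls. Kif16b, a motor of early endosomes, averaged 5.82 ± 0.458 with PNMC and 6.44 ± 0.474 in Controls. Kif13b was near the floor, at 0.993 ± 0.496 with PNMC and 1.10 ± 0.541 in Controls. The untested transport rows Kif1a, Kif1c, Kif5a, Kif21a and Kif21b had means over all libraries of at most 0.777. Kif1a was listed at 0 in all 3 PNMC libraries and at 0.0793 and 0.0709 in Control libraries.

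Cilium kinesins were scarce. Kif24, which restrains cilium formation at centrioles, averaged 5.39 ± 1.88 with PNMC and 5.32 ± 0.0688 in Controls. Kif9, a motor of sperm flagella, had values of 3.39, 4.15 and 3.50 in PNMC libraries and 4.80 and 4.23 in Control libraries, without overlap. Kif27, a relative of the hedgehog pathway kinesin Kif7, averaged 1.34 ± 0.333 with PNMC and 1.06 ± 0.0838 in Controls. Kif12 and Kif26a were listed at 0 in every library, and Kif6, Kif7, Kif19a and Kif26b did not exceed 0.157 in any. Kif28 had values of 0.508, 0.633 and 0.0909 in PNMC libraries and 0.867 and 1.02 in Control libraries, below the filter. Of the rows that are not motors, Kif1bp averaged 1.94 ± 0.730 with PNMC and 2.54 ± 0.699 in Controls, and Kif16bos was above 0 only in PNMC library 2, at 0.774, and in Control library 2, at 0.204.

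No kinesin row passed the test of PNMC against Control. At a Benjamini-Hochberg adjusted limma p under 0.05 there were 0 of 30, against a background of 0% of the 12734 genes tested, and the lowest adjusted p among the 30 was 0.967. Kifc3 was the 1 member with an unadjusted limma p under 0.05, or 1 of 30 where 4.99% of all genes tested passed. PNMC and Control values did not overlap in 8 of 30 members, or 26.7%, where the share over all genes tested was 19.9%. Of these 8, Kifc3 and Kif13a were higher with PNMC, where the background in that direction was 7.97%, and Kif2c, Kifc1, Kif15, Kif3c, Kifc2 and Kif9 were lower, where it was 11.9%. With 3 and 2 libraries, an exact permutation test of a single gene that doubles the smaller one-sided p cannot give a p below 0.2.

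**Figure D2:**
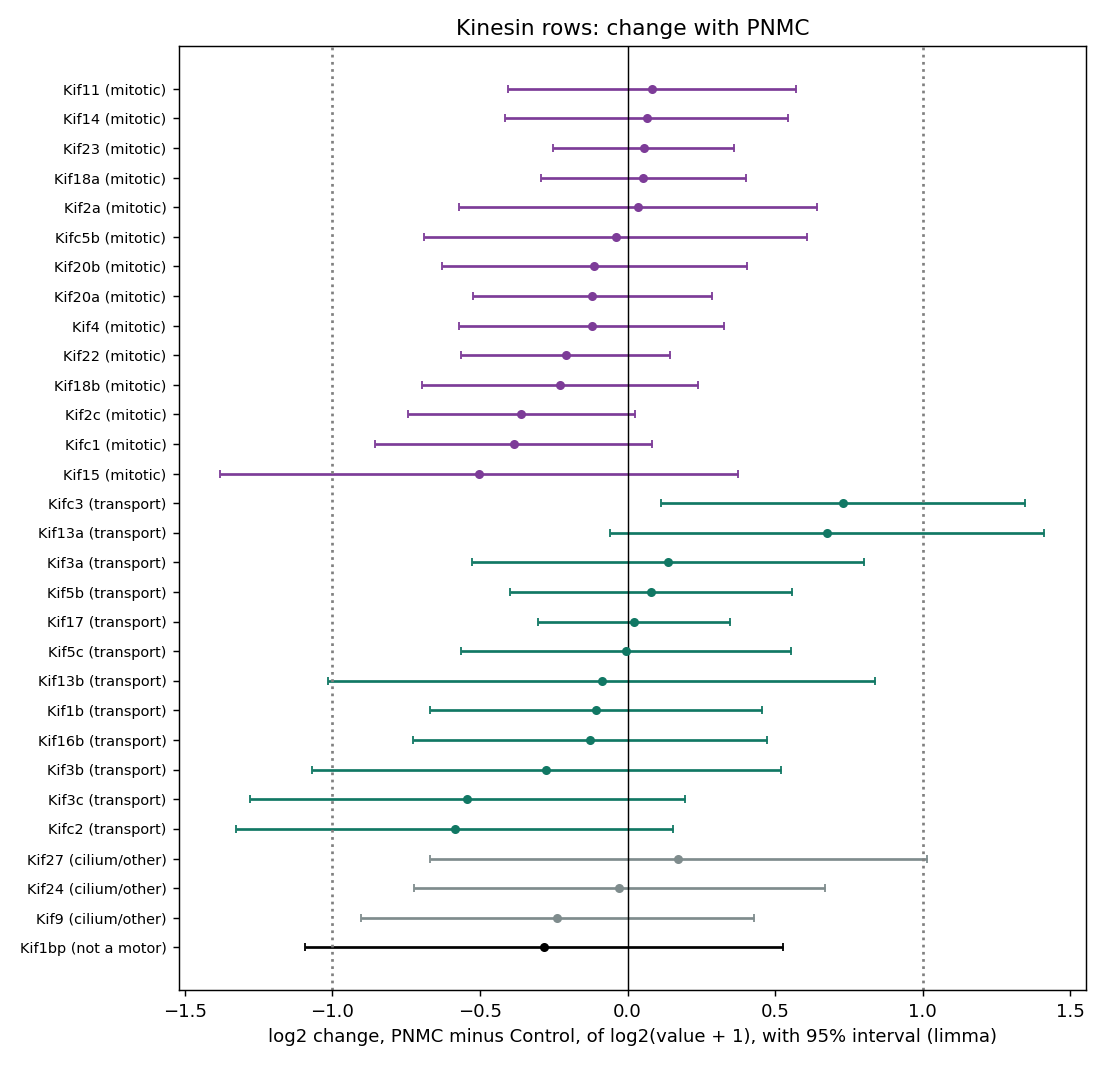
Log2 change of each of the 30 tested rows, PNMC minus Control on the log2(value + 1) scale, as points with limma's 95% intervals, coloured by role, with dotted lines at -1 and 1. Kifc3 is the only interval that lies entirely on one side of 0, from 0.11 to 1.35, and its adjusted p was 0.967.

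The intervals bounded the log2 difference of most mitotic kinesins. The 95% interval lay within 1 log2 unit in both directions for 13 of 14 mitotic kinesins, with Kif15 the exception, and for 6 of 12 transport kinesins, against 61.4% of all genes tested and 94.4% of those with a mean of at least 10. For Kif23 it ran from -0.25 to 0.36, for Kif18a from -0.29 to 0.40, and for Kif17 from -0.30 to 0.35. On the log2(value + 1) scale the change of low genes such as Kif15 and Kif13b is understated, so the bound is weaker for them.

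Mitotic and transport kinesins differed little in their change with PNMC. The median log2 change was -0.12 over 14 mitotic kinesins, of which 9 were below 0, and -0.05 over 12 transport kinesins, of which 7 were below 0. Over all genes tested it was -0.05, with 56.9% below 0. The difference of the 2 medians was -0.07. Between libraries of the same group, pooled over both groups, the SD of that difference was 0.108. This SD describes single libraries and is not a standard error of the change with PNMC. Of all 30 members, 19 were below 0, a count that was 15 under quantile normalisation and 16 after median scaling. Under quantile normalisation the median was 0.01 for transport and -0.08 for mitotic kinesins, against -0.002 over all genes tested. After median scaling the medians were 0.02, -0.03 and 0.03 in the same order. The transport median thus changed sign with the scaling, while the median over all genes tested also rose. With a minimum value of 10 the median was 0.05 over 6 transport kinesins, -0.12 over 11 mitotic kinesins and -0.02 over all genes tested. The difference of the medians was then -0.17, and no SD was computed for these shorter lists. On the log2(value + 1) scale individual changes spread more widely among transport kinesins, from -0.59 to 0.73, than among mitotic kinesins, from -0.50 to 0.08, and so did the libraries: the median coefficient of variation over all 5 was 28.4% for transport and 15.7% for mitotic kinesins. Transport kinesins also lay lower in level, at a median of 7.84 against 23.1, and the spread was not compared at equal level.

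The Control libraries themselves differed in the mitotic kinesins. Control library 1 had the higher value in 14 of the 14 tested mitotic kinesins, in 8 of 12 transport kinesins and in 45.5% of all genes tested, a share that was 49.1% among genes with a mean of at least 10. The 14 mitotic kinesins summed to 533, 507 and 523 in PNMC libraries, and to 617 in Control library 1 and 499 in Control library 2. The gap between the Controls had a median of 0.24 on the log2(value + 1) scale and ran from 0.06 for Kifc5b to 0.66 for Kif18b. It exceeded the size of the log2 change with PNMC in 11 of 14 mitotic kinesins and in 7 of 12 transport kinesins, where 64.8% of all genes tested did so. This pattern was noticed after the values were seen and is a description of these libraries.

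**Figure D3:**
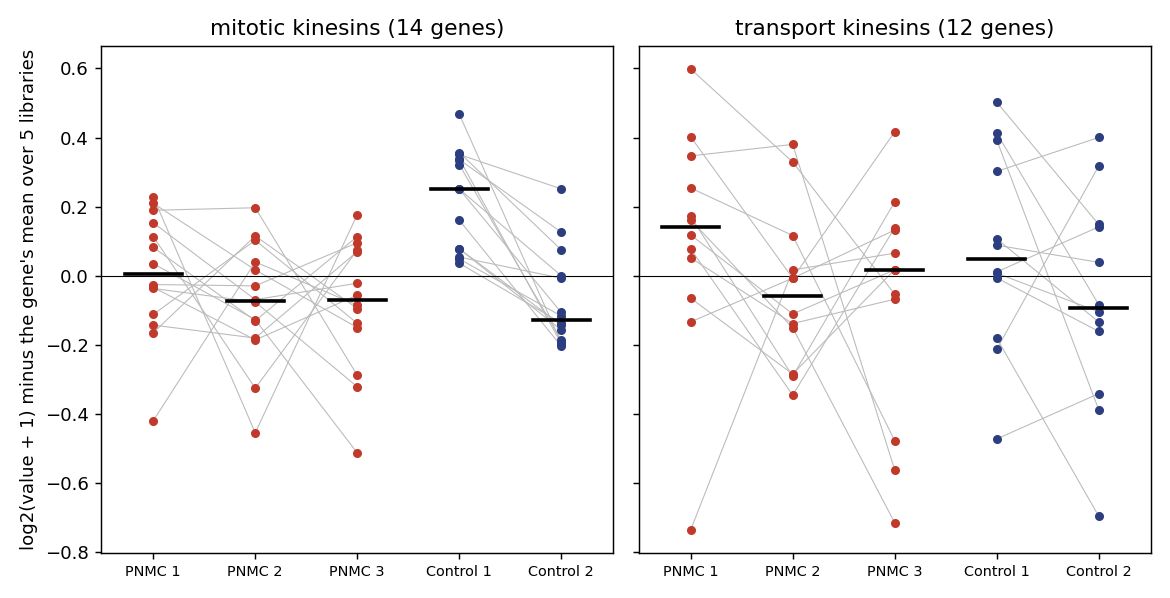
Each tested mitotic (left) and transport (right) kinesin as log2(value + 1) minus the gene's mean over the 5 libraries, by library, with PNMC in red and Control in blue; thin lines join values of the same gene and black bars are medians. The median of the mitotic kinesins was 0.25 in Control library 1 and -0.13 in Control library 2, and 0.01, -0.07 and -0.07 in PNMC libraries 1 to 3.

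The sign of the mitotic median therefore turned on which Control was used. Without Control library 1 it was 0.12, with 5 of 14 below 0, and without Control library 2 it was -0.32, with 14 of 14 below 0. The median over all genes tested was -0.07 without Control library 1 and -0.03 without Control library 2. The transport median was 0.05 without Control library 1 and -0.08 without Control library 2, and the difference of the 2 medians was 0.07 and -0.24. Leaving out a PNMC library kept the mitotic median between -0.13 and -0.08. Members without overlap numbered 17 of 30 without Control library 1, or 56.7%, where the share over all genes tested was 50.3%. They numbered 18, or 60%, without Control library 2, against 52.3% of all genes tested, and 14, or 46.7%, without PNMC library 2, against 34.6%. Without PNMC library 1 they numbered 9, or 30%, against 32.3% of all genes tested, and without PNMC library 3 they numbered 12, or 40%, against 31.7%. With all 5 libraries they numbered 7, or 23.3%, under quantile normalisation, against 19.6% of all genes tested, and 4, or 13.3%, after median scaling, against 20.7%.

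**Figure D4:**
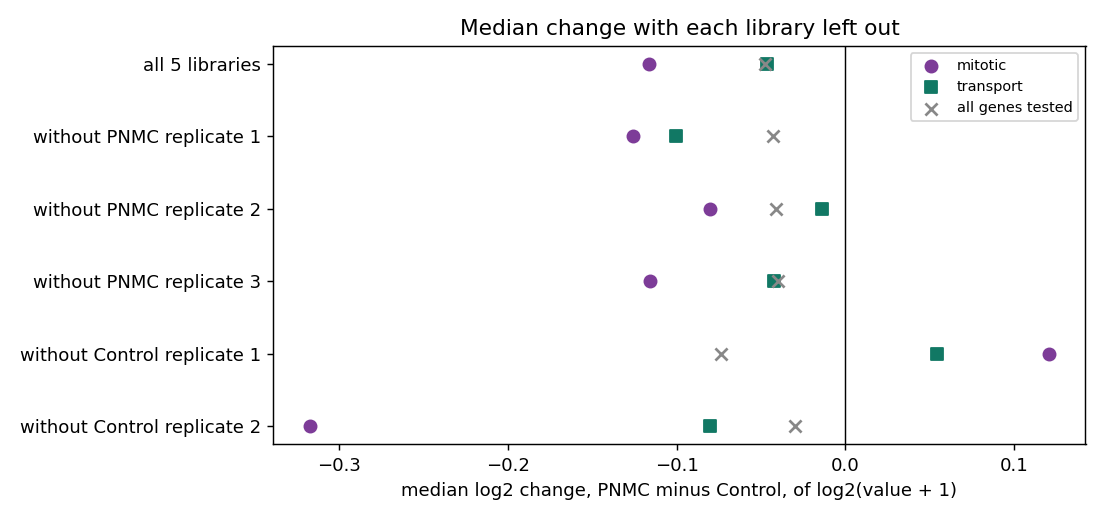
Median log2 change (PNMC minus Control, log2(value + 1) scale) of mitotic kinesins, transport kinesins and all genes tested, with all 5 libraries and with each left out. The mitotic median is 0.12 without Control library 1 and -0.32 without Control library 2, against -0.12 with all 5 libraries.

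Partners of the motors gave no call either. Of the 25 partners of mitotic kinesins, which cover the chromosomal passenger complex, centralspindlin and spindle assembly factors, 25 were tested, 0 passed and the median log2 change was -0.07, with 17 below 0. The spindle kinase Aurka averaged 168 ± 11.9 with PNMC and 194 ± 34.1 in Controls, and Ckap5, a microtubule polymerase, averaged 11.6 ± 0.545 with PNMC and 14.5 ± 0.352 in Controls. Cenpe, the kinetochore kinesin whose symbol lies outside the name rule, averaged 18.9 ± 2.76 with PNMC and 18.2 ± 3.72 in Controls. Of the 17 light chain and adaptor genes with a row, 14 were tested and 0 passed, with a median of 0.09 and 5 below 0. The scaffold genes Mapk8ip2, at 0.166 ± 0.195 with PNMC and 1.30 ± 0.0495 in Controls, and Mapk8ip1, at 0.334 ± 0.150 with PNMC and 1.31 ± 0.145 in Controls, had the smallest p of that list (limma adjusted p = 0.976 for Mapk8ip2 and 0.993 for Mapk8ip1). Both passed the filter only through their Control values. Their lower values with PNMC are therefore partly set by the filter and are no support for a change. Of 26 genes of cytoplasmic dynein, the main motor towards microtubule minus ends, and its regulators, 22 were tested and 0 passed, with a median of -0.03 and 13 below 0. The light chain Dynlt1b averaged 29.4 ± 5.66 with PNMC and 40.6 ± 11.3 in Controls, and the dynein regulator Nde1 averaged 44.8 ± 6.57 with PNMC and 36.1 ± 8.26 in Controls.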

How the data were processed

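Per the submitters' processing notes, the tools were Trimmomatic, HISAT2 2.0.5, HTSeq and DESeq2 1.16.1 with the build GRCm39. Neither the annotation nor the tool that produced the table is stated. The authors deposited a normalised signal per gene symbol and library, fractional and never negative, which sums to between 446010 and 454548 per library; its unit and the read depth are unknown, so no count test or counting interval was used. Columns were matched to samples by title. Values were transformed to log2(value + 1), and genes with at least 1 in at least 2 libraries were kept (12734). PNMC was compared with Control by limma 3.58.1 in R 4.3.3 with its trend and robust options, without covariates, and Benjamini-Hochberg adjustment over all genes tested, at a threshold of 0.05. The procedure was tested on simulated data. Intervals are limma's at 95%. Means carry SDs over 3 PNMC and 2 Control libraries.

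Roles, partner lists and markers were chosen with earlier results of these data known. Every kinesin row could be named, with statistics for the 8 most abundant and the 5 smallest p in each direction. Of each partner list the 2 genes with the smallest p were named, and of each marker list the most abundant. Cenpe, light chains, Racgap1, overlapping genes and the markers Prm2, Tssk6, Akap4, Has2, Star, Hsd3b1, Cd68 and Hba-a2 were added after values were seen. One result on a gene outside the family is not reported here. Transcript lengths, shared 50-base words and exon overlaps came from GENCODE release M21, which is on another build and holds all 44 symbols, so no coordinates of the rows are given. Promoter windows came from RefSeq on GRCm38.p6. The counts, the medians of the mitotic and transport kinesins and the changes of the 15 members given statistics were recomputed with quantile normalisation, median scaling, each library left out, a replicate block, narrower lists, a pseudocount of 0.1, a minimum value of 10 and all genes above 0. The count without overlap involves no block, and the partner lists and the gap between Controls were not recomputed.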

Additional observations from a re-analysis of the deposited data

How the results depend on the processing

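No kinesin row passed the adjusted threshold under any alternative run, and the lowest adjusted p of a named member was 0.829. The 15 named members kept the sign of their change in 151 of 161 alternative values. With all 5 libraries, the members that turned sign had log2 changes from -0.23 for Kif18b to 0.14 for Kif3a. Kif22, at -0.21, and Kif27, at 0.17, kept theirs. The 10 values that turned sign all came from leaving out a library. Without Control library 2 they were Kif17, Kif18a and Kif23; without Control library 1, Kif18b, Kif20a and Kif4; without PNMC library 1, Kif17, Kif18a and Kif3a; and without PNMC library 2, Kif3a. With each library left out in turn, the log2 change ran from -0.099 to 0.142 for Kif17, -0.0574 to 0.164 for Kif18a, -0.559 to 0.103 for Kif18b, -0.387 to 0.148 for Kif20a, -0.027 to 0.138 for Kif23, -0.024 to 0.447 for Kif3a and -0.300 to 0.0573 for Kif4. With 1 library left out, the mitotic median ran from -0.317 to 0.120, the transport median from -0.100 to 0.0544, their difference from -0.237 to 0.0661, and members without overlap from 9 to 18. A lone Control library was assumed to vary like the PNMC libraries. Members without overlap numbered 4 of 30 after median scaling, or 13.3% against 20.7% of all genes tested, and 3 of 17 with a minimum of 10, or 17.6% against 17.6%. Narrower lists gave medians of -0.12 for mitotic and -0.09 for transport kinesins. Whether the replicate numbers shared by both groups pair the libraries is not stated. Over genes, Control library 1 minus 2 had a Pearson correlation of -0.06 with PNMC library 1 minus 2. This single value cannot decide it. With the number as a replicate block, PNMC library 3 drops out of the comparison. There 0 members passed, and the medians were -0.12 for mitotic and -0.04 for transport kinesins. The cause of these shifts was not tested. Depth is unknown, so rows at 0 or near the filter cannot be called absent.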
